A study of Gallus gallus with 18 samples.

Results

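The genes described here build the neuronal cytoskeleton, the growth cone and the synaptic vesicle, and they were followed through early development of the chick trigeminal ganglion. The list held 40 gene symbols, and every entry of the gene count table that carried one of these symbols was taken. Of the 40 genes, 38 were found among the 30108 genes of the table, and all 38 passed the filter on low counts that left 17724 genes for testing. ELAVL3 and SYN1 had no entry under those symbols and were not analysed here. By role, 12 of the 38 encode cytoskeletal proteins, 8 encode growth cone proteins, 2 encode RNA-binding proteins of the ELAVL (Hu) family, 15 encode proteins of synaptic vesicles and secretory granules, and 1, UCHL1, encodes a deubiquitinating enzyme abundant in neurons.

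The trigeminal ganglion is the sensory ganglion of the face, and its neurons come from neural crest cells and from ectodermal placodes. A young neuron fills its axon with microtubules, which tubulin, microtubule-associated proteins and doublecortin build and steady, and later adds neurofilaments, which give the axon its calibre. At the axon tip, the growth cone depends on stathmins, which bind free tubulin and destabilise microtubules, and on collapsin response mediator proteins (CRMPs), which relay guidance signals to the cytoskeleton. Synaptic vesicles fuse with the membrane through SNARE proteins, with synaptotagmins as calcium sensors, whereas dense-core granules carry peptides with granins such as secretogranins and chromogranin A.

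Wild-type chick embryos were sampled at 3 stages of the Hamburger-Hamilton (HH) series, which orders embryos by external form: HH13-14, HH15-16 and HH17-18. Each stage had 3 biological replicates, each a pool of dissected ganglia, and the labels used here do not say how many embryos a pool held or their sex. Poly(A) RNA of each pool was sequenced as 2 technical replicates, on lanes 7 and 8, and these were summed, so that n = 3 pools per stage and p-values measure the spread between pools. A library had 26505315 to 34424153 counts (18 libraries), and a pool had 53458986 to 68083147 (9 pools).

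Levels are given as CPM, which are counts scaled to a common normalised library size, in replicates 1, 2 and 3 of a stage in that order. They are not divided by transcript length, so levels are compared between stages and not between genes. All 10 listed sensory neuron markers were present. Their summed level was 100.3 to 173 CPM at HH13-14, 56.0 to 139 CPM at HH15-16 and 71.9 to 177 CPM at HH17-18. Markers of mesenchyme, neural crest and glia, neural tube, surface ectoderm, endothelium and blood were also present in every stage, so the pools were not neurons alone. In such bulk samples, fewer cells of a type and less RNA per cell cannot be told apart.

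Between HH13-14 and HH17-18, 5 members rose and 0 fell. DCX (doublecortin), the neurofilament subunits NEFL and NEFM, and the stathmins STMN2 and STMN4 were 1.65 to 3.62 times as high at HH17-18 as at HH13-14. TUBB3, STMN1 and DPYSL2, which had high counts in every pool, had log2 fold changes of 0.14, 0.12 and -0.11 and did not pass the test. The 5 that rose were 13.2% of the 38 members, beside 425 of all 17724 genes tested (2.4%) that were higher. The members were chosen with earlier results of these data known, so such shares, here and below, are a description and not separate evidence. Among all genes 375 (2.12%) were lower. At an unadjusted p under 0.05, 14 members were higher (11.8% of all genes) and 1, ANK3, was lower (9.83% of all genes), and ANK3 was also the 1 member that DESeq2 and limma voom called lower.

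The calls came from edgeR's quasi-likelihood test with Benjamini-Hochberg adjustment over all genes and a threshold of 0.05. It was run as 1 fit of all 9 pools, called the main edgeR fit, which is meant where edgeR is named without a setting. With any 1 HH13-14 or HH17-18 pool left out, fewer of all genes were called than the 800 with all pools. Without HH15-16 replicates 1, 2 and 3 in turn, 1508, 695 and 868 of all genes were called. Without HH17-18 replicate 1 the same 5 members were called higher, beside 1.98% of all genes. Without HH17-18 replicate 2 a different 5 were called higher, beside 0.734% of all genes. These were NEFL, NEFM, STMN2, CRMP1 and ELAVL4. Without HH17-18 replicate 3, 0 of the 38 members were called, beside 0.397% of all genes higher. Without HH13-14 replicates 1, 2 and 3 in turn, 0, 1 (DCX) and 0 members were called, beside 0.149%, 0.247% and 0.203% of all genes higher. In these fits 12, 13, 14 and 15 members were at an unadjusted p under 0.05 in either direction. With all pools 15 were, beside 11.8% of all genes higher and 9.83% lower. The share of all genes at that unadjusted p was not computed with a pool left out. Without an HH13-14 pool the estimates were 1.78 to 1.88 for STMN2, 0.85 to 0.91 for NEFL, 1.15 to 1.26 for NEFM and 1.77 to 1.98 for STMN4. DCX was at 0.62 without HH13-14 replicate 1 and at 0.73 without replicate 3, beside 0.72 with all pools. Without HH15-16 replicate 1, 8 members were called higher, beside 4.33% of all genes, and ANK3 was called lower, beside 722 of 18159 genes. NEFL lost its call without HH15-16 replicate 2, and DCX and STMN4 lost theirs without HH17-18 replicate 2.

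**Figure D1:**
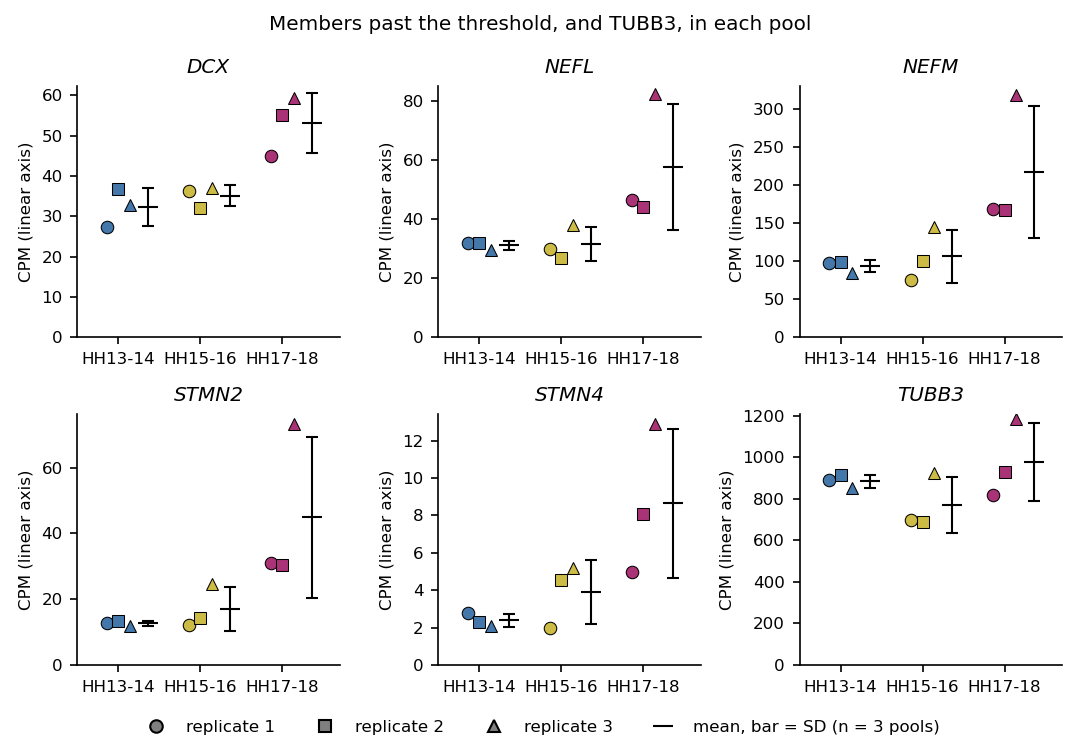
Level of DCX, NEFL, NEFM, STMN2, STMN4 and TUBB3 (CPM, vertical axes from 0) in each of the 9 pools, by stage; points are pools, and bars show the mean and SD of 3 pools. The 3 HH17-18 pools lay above the 3 HH13-14 pools for DCX, NEFL, NEFM, STMN2 and STMN4, while the TUBB3 pools overlapped.

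Among the microtubule genes, TUBB3, the neuronal beta-tubulin used as a marker of new neurons, was at 891, 914 and 851 CPM at HH13-14, at 699.7, 688 and 924 CPM at HH15-16, and at 817, 929.8 and 1182 CPM at HH17-18. The stages overlapped, with the highest pool at HH17-18 and the lowest at HH15-16. Its log2 fold change of HH17-18 against HH13-14 was 0.14 (SE 0.14, edgeR's adjusted p = 0.608). Beta-tubulin genes are similar in sequence, so reads may be shared between them, and the counting settings are not given in the sources used here.

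DCX binds and stabilises microtubules in migrating and axon-bearing young neurons. It was at 27.3, 36.7 and 32.7 CPM at HH13-14, at 36.4, 32.1 and 36.9 CPM at HH15-16, and at 45.0, 55.2 and 59.4 CPM at HH17-18. The earlier stages overlapped and all HH17-18 pools stood above all others. DCX averaged 53.2 ± 7.42 CPM at HH17-18 and 32.2 ± 4.73 CPM at HH13-14 (SD, n = 3 pools each). The log2 fold change was 0.72 (SE 0.13, edgeR's adjusted p = 0.0211), and the test of any difference among the stages also passed (adjusted p = 0.0443). The gene (ENSGALG00010015393) lies on chromosome 4 at 13190022 to 13272963 of GRCg7b, in the RefSeq annotation.

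The other 4 microtubule genes, MAP1B, MAP2, MAPT and DCLK1, had log2 fold changes of 0.19 to 0.48 and none passed in the main edgeR fit. DESeq2 and limma voom called MAPT higher. In other edgeR settings MAPT passed with at least 10 counts in every pool (adjusted p = 0.0494). It also passed in a fit of the 2 stages (0.0468) and without HH15-16 replicate 1 (0.0461). MAPT, which encodes tau, was at 26.8, 21.9 and 22.6 CPM at HH13-14, at 28.2, 31.4 and 28.0 CPM at HH15-16, and at 29.6, 32.2 and 36.2 CPM at HH17-18. All 6 pools of the later stages were above all 3 HH13-14 pools. Its log2 fold change was 0.46 (SE 0.12) with an adjusted p by edgeR of 0.0541. MAP2, a dendritic microtubule protein, and MAP1B, an early axonal one, overlapped between the stages, with log2 fold changes of 0.20 (edgeR's adjusted p = 0.539) and 0.19 (adjusted p = 0.603). DCLK1, a doublecortin-like kinase, had HH17-18 pools on either side of all HH13-14 pools, at 30.3, 11.02 and 25.5 CPM at HH17-18 and 15.8, 17.7 and 14.5 CPM at HH13-14.

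Of the 4 intermediate filament genes, the light and medium neurofilament subunits rose. NEFL was at 31.8, 31.9 and 29.4 CPM at HH13-14, at 29.9, 26.9 and 38.05 CPM at HH15-16, and at 46.5, 43.9 and 82.2 CPM at HH17-18. The HH15-16 pools spanned the HH13-14 pools, and the 3 HH17-18 pools were above both. NEFL averaged 57.5 ± 21.4 CPM at HH17-18 and 31.1 ± 1.40 CPM at HH13-14 (SD, n = 3 pools each), a log2 fold change of 0.89 (SE 0.22, edgeR's adjusted p = 0.0487).

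NEFM was at 97.2, 98.3 and 83.9 CPM at HH13-14, at 74.6, 100.05 and 144 CPM at HH15-16, and at 168, 167 and 318 CPM at HH17-18. As for NEFL, HH17-18 replicate 3 was the highest pool, and the other HH17-18 pools lay close together above all pools of the earlier stages. NEFM averaged 217 ± 86.8 CPM at HH17-18 and 93.2 ± 8.01 CPM at HH13-14 (SD, n = 3 pools each), a log2 fold change of 1.22 (SE 0.27, edgeR's adjusted p = 0.0354). NEFL (ENSGALG00010018944) and NEFM (ENSGALG00010018973) are neighbours on chromosome 22 of GRCg7b, at 999186 to 1004040 and 1008134 to 1012686, with 4093 bases and no other RefSeq gene between them.

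PRPH encodes peripherin, the intermediate filament protein of peripheral neurons, and was the neurofilament-group member with a negative value. It was at 9.13, 7.31 and 4.94 CPM at HH13-14, at 5.93, 8.93 and 6.30 CPM at HH15-16, and at 7.18, 7.31 and 4.30 CPM at HH17-18. The stages overlapped, and the log2 fold change of -0.19 (SE 0.28, edgeR's adjusted p = 0.75) did not pass. INA, which encodes alpha-internexin, was at no more than 1.96 CPM in any pool, with that highest value in HH15-16 replicate 1. Its log2 fold change was 0.73 (SE 0.45, edgeR's adjusted p = 0.388).

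The ankyrins, which tie membrane proteins to the spectrin skeleton, had opposite signs and did not pass in the main edgeR fit. DESeq2 and limma voom called ANK2 higher and ANK3 lower. In other edgeR settings ANK2 passed with no filter on low counts (adjusted p = 0.0405) and in a fit of the 2 stages (0.0475). ANK3 passed in that 2-stage fit (0.0137) and without HH15-16 replicate 1 (0.0127). ANK2, the ankyrin of the axon shaft, was at 33.7, 38.8 and 34.5 CPM at HH13-14, at 43.4, 30.4 and 44.2 CPM at HH15-16, and at 46.0, 50.8 and 78.5 CPM at HH17-18. ANK3, the ankyrin of the axon initial segment, was at 84.4, 91.0 and 96.6 CPM at HH13-14, at 63.5, 95.4 and 82.6 CPM at HH15-16, and at 67.7, 64.4 and 69.3 CPM at HH17-18. For ANK2 every HH17-18 pool was above every HH13-14 pool, and for ANK3 every HH17-18 pool was below. The log2 fold changes were 0.71 (SE 0.20, edgeR's adjusted p = 0.0747) for ANK2 and -0.43 (SE 0.13, adjusted p = 0.0861) for ANK3.

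In the growth cone group, STMN2 and STMN4 rose and the other 6 genes did not pass in the main edgeR fit. STMN2, the neuron-specific stathmin also called SCG10, was at 12.6, 13.5 and 11.8 CPM at HH13-14, at 12.0, 14.3 and 24.5 CPM at HH15-16, and at 31.0, 30.3 and 73.3 CPM at HH17-18. Only HH15-16 replicate 3 stood apart from the other pools of the earlier stages, and all HH17-18 pools were above it. STMN2 averaged 44.9 ± 24.6 CPM at HH17-18 and 12.6 ± 0.831 CPM at HH13-14 (SD, n = 3 pools each). The log2 fold change was 1.83 (SE 0.36, edgeR's adjusted p = 0.0244), a ratio of 3.56, and the test of any difference among the stages passed at 0.0498. STMN2 (ENSGALG00010003323) lies on chromosome 2 at 120289943 to 120324364 of GRCg7b.

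STMN4 was at 2.78, 2.28 and 2.09 CPM at HH13-14, at 1.98, 4.55 and 5.21 CPM at HH15-16, and at 4.98, 8.06 and 12.9 CPM at HH17-18. The HH17-18 pools were above the HH13-14 pools and overlapped the HH15-16 pools. STMN4 averaged 8.64 ± 3.99 CPM at HH17-18 and 2.39 ± 0.359 CPM at HH13-14 (SD, n = 3 pools each), with a log2 fold change of 1.85 (SE 0.40, edgeR's adjusted p = 0.033). It lies on chromosome 3 of GRCg7b, at 105160758 to 105167588 (ENSGALG00010010517).

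Among the remaining stathmins, STMN3 was higher in every HH17-18 pool (16.6, 15.3 and 35.6 CPM) than in every HH13-14 pool (12.3, 12.6 and 10.4 CPM), with a log2 fold change of 0.93 (SE 0.28) that did not pass (edgeR's adjusted p = 0.0849), though it did in DESeq2 and limma voom. STMN1, the stathmin that dividing cells also use, was at 890.4, 843 and 889 CPM at HH13-14, at 778, 802 and 976 CPM at HH15-16, and at 935, 875 and 1033 CPM at HH17-18. Its stages overlapped, and its log2 fold change was 0.12 (SE 0.09, edgeR's adjusted p = 0.506).

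DPYSL2, which encodes CRMP2 and had the most negative value of the growth cone group, was at 729, 699.6 and 669 CPM at HH13-14, at 745, 589 and 630.2 CPM at HH15-16, and at 691, 563 and 695 CPM at HH17-18. Its stages overlapped, with a log2 fold change of -0.11 (SE 0.10, edgeR's adjusted p = 0.596). CRMP1 and DPYSL3, its relatives, were above the HH13-14 pools in all HH17-18 pools, with log2 fold changes of 0.37 (edgeR's adjusted p = 0.0855) and 0.19 (adjusted p = 0.312), and limma voom called CRMP1 higher. GAP43, a membrane protein of growing axons, was at 7.54, 7.48 and 17.9 CPM at HH17-18 and at 9.53, 8.08 and 9.94 CPM at HH13-14. Only HH17-18 replicate 3 exceeded the earlier pools of GAP43, and the log2 fold change was 0.26 (SE 0.30, edgeR's adjusted p = 0.677).

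The ELAVL proteins bind AU-rich RNA and are classic early neuronal markers. ELAVL4 (HuD) was at 62.5, 61.2 and 65.3 CPM at HH13-14, at 63.9, 64.5 and 72.7 CPM at HH15-16, and at 89.3, 77.0 and 151 CPM at HH17-18. All HH17-18 pools were above all pools of the earlier stages, and the log2 fold change against HH13-14 was 0.75 (SE 0.20) with an adjusted p by edgeR of 0.0649. DESeq2 and limma voom called ELAVL4 higher. In other edgeR settings it passed with no filter on low counts (adjusted p = 0.0293) and with the replicate number as a block (0.0403). It also passed without HH17-18 replicate 2 (0.0375). ELAVL2 overlapped between the stages, with 7.37, 4.75 and 16.4 CPM at HH17-18 and 7.32, 6.52 and 7.62 CPM at HH13-14, and a log2 fold change of 0.41 (SE 0.42, edgeR's adjusted p = 0.624).

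Of the 15 vesicle and granule genes none passed in the main edgeR fit, beside 2.4% of all genes higher and 2.12% lower. At an unadjusted p under 0.05, 4 of the 15 were higher, beside 11.8% of all genes, and 0 were lower, beside 9.83%. DESeq2 called SNAP25 and SYT4 higher, and limma voom called SYT4, SYP and SCG3 higher. In other edgeR settings SYT4 was called higher with no filter on low counts (adjusted p = 0.0319) and with the replicate number as a block (0.0200). It was also called in a fit of the 2 stages (0.0304) and without HH15-16 replicate 1 (0.0375) or 3 (0.0347). SCG3 was called with the block (0.0289) and without HH15-16 replicate 1 (0.0475). Of all genes, 2.03% to 4.45% were higher in these settings. In the SNARE and synaptotagmin group, SYT4, a synaptotagmin of secretory vesicles, was at 2.77, 2.15 and 3.12 CPM at HH13-14, at 2.13, 2.66 and 5.76 CPM at HH15-16, and at 5.28, 5.83 and 12.9 CPM at HH17-18. All HH17-18 pools were above all HH13-14 pools, and the log2 fold change of 1.58 (SE 0.43) had an adjusted p by edgeR of 0.0664. SNAP25, a SNARE of the plasma membrane, was at 1.90, 2.60 and 5.72 CPM at HH17-18 and at 1.45, 1.63 and 1.15 CPM at HH13-14. These pools did not overlap, and the log2 fold change was 1.27 (SE 0.40, edgeR's adjusted p = 0.106).

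SYT11, a synaptotagmin that does not bind calcium, was at 234, 233 and 235 CPM at HH13-14, at 278, 236 and 244 CPM at HH15-16, and at 261, 236 and 280.0 CPM at HH17-18. Its log2 fold change was 0.15 (SE 0.08, edgeR's adjusted p = 0.329), with all later pools above the HH13-14 pools. SYT1, the fast calcium sensor, and STX1A, a plasma membrane SNARE, had log2 fold changes of 0.07 and 0.12 and overlapped. VAMP2, the vesicle SNARE, was at 0.396, 0.374 and 0.248 CPM at HH13-14, at 0.733, 0.304 and 0.147 CPM at HH15-16, and at 0.138, 0.183 and 0.537 CPM at HH17-18. These levels were 9 to 43 counts a pool, too few to rank the stages, and the log2 fold change was -0.25 (SE 0.66, edgeR's adjusted p = 0.866).

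The vesicle membrane genes were not separated by the test either. RAB3A, a small GTPase of synaptic vesicles, was at 27.1, 28.9 and 23.5 CPM at HH13-14, at 26.6, 26.4 and 29.1 CPM at HH15-16, and at 22.6, 31.0 and 31.5 CPM at HH17-18. RAB3C, its relative, had the most negative log2 fold change of the vesicle genes, -0.41 (SE 0.32, edgeR's adjusted p = 0.504), at 1.26, 1.85 and 2.00 CPM at HH13-14, 2.39, 1.47 and 2.02 CPM at HH15-16, and 1.78, 1.04 and 1.02 CPM at HH17-18. The pools of both genes overlapped between stages. SV2A, a transporter-like vesicle protein, was at 1.45, 0.841 and 1.10 CPM at HH13-14, at 5.20, 1.06 and 1.32 CPM at HH15-16, and at 1.501, 1.54 and 2.72 CPM at HH17-18. Its highest pool was HH15-16 replicate 1, and its log2 fold change of HH17-18 against HH13-14 was 0.76 (SE 0.56, edgeR's adjusted p = 0.476). The gene listed as SYP (synaptophysin), for which RefSeq gives SYNPR as a synonym, had a log2 fold change of 0.67 (SE 0.25, edgeR's adjusted p = 0.149), and SYN2 and SV2C were at most at 1.56 CPM in any pool.

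Among the granins, SCG3 was at 48.7, 51.4 and 60.9 CPM at HH13-14, at 42.0, 60.2 and 71.9 CPM at HH15-16, and at 70.3, 69.8 and 103 CPM at HH17-18. All HH17-18 pools were above all HH13-14 pools, with a log2 fold change of 0.59 (SE 0.20, edgeR's adjusted p = 0.124). SCG2 was at 6.44, 8.86 and 7.32 CPM at HH13-14, at 6.59, 8.18 and 8.81 CPM at HH15-16, and at 5.81, 6.67 and 9.50 CPM at HH17-18, and the stages overlapped with a log2 fold change of -0.04 (SE 0.22, edgeR's adjusted p = 0.935). CHGA had a log2 fold change of 0.29 and overlapped. UCHL1 was at 85.6, 72.7 and 78.4 CPM at HH13-14, at 114, 115 and 71.6 CPM at HH15-16, and at 101, 82.7 and 75.9 CPM at HH17-18. Its HH15-16 pools were the most spread, and its log2 fold change of HH17-18 against HH13-14 was 0.13 (SE 0.17, edgeR's adjusted p = 0.706).

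**Figure D2:**
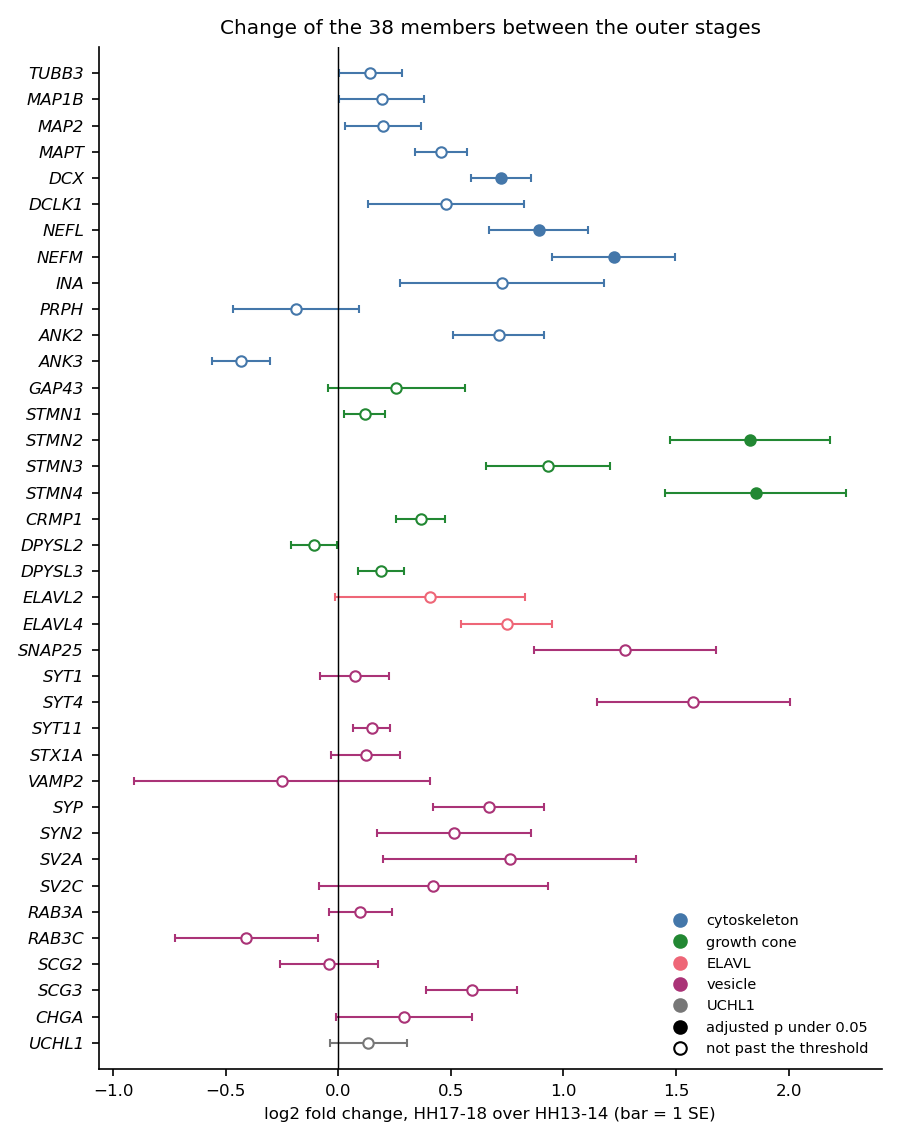
Log2 fold change of HH17-18 against HH13-14 (horizontal axis) for the 38 members, grouped by role; points are estimates, bars are 1 SE either side, and filled points passed the threshold. The 5 filled points are DCX, NEFL, NEFM, STMN2 and STMN4, and the points range from -0.43 for ANK3 to 1.85 for STMN4.

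Set side by side, the groups had median log2 fold changes of HH17-18 against HH13-14 of 0.47 for the 12 cytoskeleton genes, 0.31 for the 8 growth cone genes, 0.58 for the 2 ELAVL genes and 0.29 for the 15 vesicle genes. The median over the 38 members was 0.39, beside 0.02 over all 17724 genes tested. Without HH17-18 replicate 3 these medians were 0.36 for the cytoskeleton, 0.18 for the growth cone, 0.07 for ELAVL, 0.08 for the vesicle genes and 0.16 for all members, so the order of the groups was not stable. The cytoskeleton group ran from -0.43 to 1.22, the growth cone group from -0.11 to 1.85, and the vesicle group from -0.41 to 1.58. In all, 32 of the 38 members had a log2 fold change above 0, as did 52.8% of all genes. For 18 members (47.4%) all 3 HH17-18 pools were above all 3 HH13-14 pools, a pattern that 16% of all genes had, and for 1 member, ANK3, they were all below (15.4% of all genes).

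Between HH13-14 and HH15-16, 0 members passed in either direction by edgeR, which called 0 of all genes (0%). DESeq2 and limma voom also called 0 members, beside 103 of 26169 and 2 of 17724 genes. At an unadjusted p under 0.05, 1 member was higher, beside 5.29% of all genes, and 0 were lower, beside 4.84%. Between HH15-16 and HH17-18, 0 members passed by edgeR, beside 0.0169% of all genes higher and 0.0621% lower, while 15 members were higher at an unadjusted p under 0.05 (5.1% of all genes) and 0 were lower (4.21% of all genes). Without HH17-18 replicate 3 the members under that unadjusted p in either direction were 5, and without HH15-16 replicate 2 they were 10. The share of all genes was not computed for these fits. DESeq2 called DCX, NEFL, NEFM and STMN2 higher in this later step, beside 0.665% of all genes.

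The 5 members that rose over the whole interval had smaller estimates in the earlier step than in the later one. The log2 fold changes of HH15-16 against HH13-14 were 0.12 for DCX, 0.03 for NEFL, 0.19 for NEFM, 0.42 for STMN2 and 0.71 for STMN4. The log2 fold changes of HH17-18 against HH15-16 were 0.60 for DCX, 0.86 for NEFL, 1.03 for NEFM, 1.41 for STMN2 and 1.14 for STMN4. For STMN4 the order turned without HH15-16 replicate 1, with 1.02 in the earlier step and 0.82 in the later one. A test of the difference between the steps passed for 0 of the 38 members by edgeR and by DESeq2. Over all genes it passed for 0.00564% by edgeR and for 9 of 26169 by DESeq2. By edgeR, 1 member was under an unadjusted p of 0.05 (4.36% of all genes). The median over the 38 members was 0.09 in the earlier step and 0.30 in the later one, and without HH17-18 replicate 3 it was 0.08 in either step. The test of any difference among the 3 stages passed for DCX and STMN2 (2 of 38), beside 1.3% of all genes. It passed for 0 members without any 1 of the 3 HH13-14 pools, HH15-16 replicate 2 or HH17-18 replicates 2 or 3, beside 23 to 106 of all genes. It passed for 1 without HH17-18 replicate 1, beside 168 of all genes. Without HH15-16 replicates 1 and 3 it passed for 5 and 4, beside 606 and 479 of all genes.

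**Figure D3:**
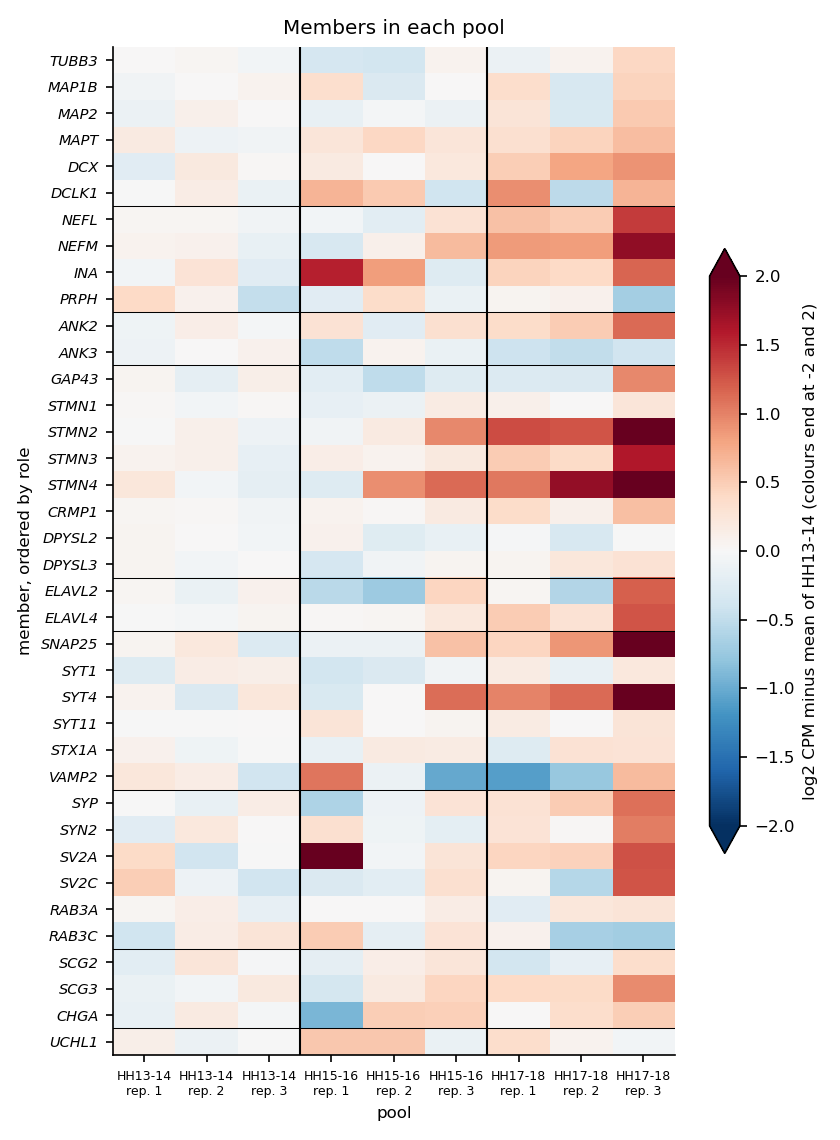
Level of the 38 members in each of the 9 pools, as the log2 CPM minus the mean of the HH13-14 pools, with members down the page by role and pools across by stage; colour gives the log2 difference, and the ends of the colour scale include values beyond it. The members' median was 0.28, 0.16 and 0.66 in the HH17-18 replicates 1, 2 and 3.

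The 3 HH17-18 pools did not carry the members equally. HH17-18 replicate 3 had the highest level of the 9 pools for 27 of the 38 members (71.1%), whereas it was the highest pool for 12.3% of all genes. The median difference of the members from their HH13-14 mean was 0.66 in that pool, against 0.28 and 0.16 in replicates 1 and 2. Next came HH15-16 replicate 1, which was the highest pool for 5 members and for 19.5% of all genes, and HH15-16 replicate 2, for 2 members and 11.1% of all genes. The HH17-18 replicates 1 and 2 were highest for 1 member each, beside 7.52% and 17.6% of all genes. The HH13-14 replicates 1, 2 and 3 were highest for 1, 0 and 1 member, beside 9.12%, 7.6% and 9.65% of all genes, and HH15-16 replicate 3 for 0, beside 5.48%. The same HH17-18 replicate 3 had the highest summed level of the sensory neuron markers at its stage, 177 CPM beside 71.9 and 108 CPM in replicates 1 and 2. It was also the highest of its stage for macrophage markers (60.4 CPM beside 19.5 and 33.1 CPM). The same held for neural crest and glia markers (550 CPM beside 402 and 520 CPM) and muscle markers (29.4 CPM beside 24.2 and 27.8 CPM). The sensory neuron markers summed to 173 CPM in HH13-14 replicate 3, where the members' median difference was -0.02. The part of any of these cell types in the members' values was not tested.

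Without HH17-18 replicate 3, the 5 members stayed above 0 and none passed the edgeR test. The log2 fold changes of HH17-18 against HH13-14 were then 0.62 for DCX (adjusted p = 0.0745), 0.53 for NEFL (adjusted p = 0.104), 0.83 for NEFM (adjusted p = 0.0933), 1.27 for STMN2 (adjusted p = 0.0543) and 1.43 for STMN4 (adjusted p = 0.100). Of the 5, DCX moved least and NEFL moved most in proportion. With all pools in, every HH17-18 pool of the 5 was above every HH13-14 pool, so leaving out replicate 3 could not change that order.

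**Figure D4:**
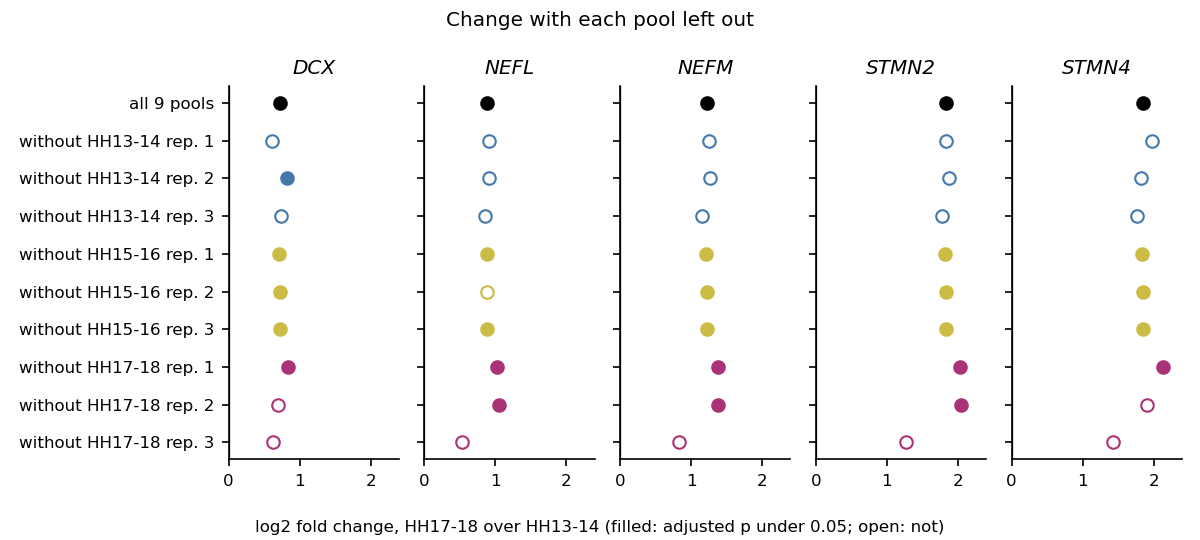
Log2 fold change of HH17-18 against HH13-14 for DCX, NEFL, NEFM, STMN2 and STMN4 with each of the 9 pools left out in turn, beside the value with all pools; filled points passed the threshold. Every estimate was above 0, and without HH17-18 replicate 3 the estimates were 0.62 for DCX, 0.53 for NEFL, 0.83 for NEFM, 1.27 for STMN2 and 1.43 for STMN4, with no point filled.

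The change in these members relative to TUBB3 within the same pool was computed as a log2 ratio of CPM, which does not depend on library scaling. The HH17-18 mean minus the HH13-14 mean was 0.60 for DCX, 0.70 for NEFL, 1.03 for NEFM, 1.58 for STMN2 and 1.64 for STMN4, each given as a description without a test. For STMN2 the ratio ran from -4.94 to -4.01 at HH17-18 and from -6.17 to -6.08 at HH13-14, and for NEFM from -2.48 to -1.90 at HH17-18 and from -3.34 to -3.20 at HH13-14. In these 5 members the ranges at HH17-18 and HH13-14 did not overlap. The 5 were chosen because they rose, and their own levels did not overlap between these stages either, so the ratio adds no separate evidence. For NEFL the ratios of the stages did not overlap at any pair, with -4.85 to -4.81 at HH13-14, -4.67 to -4.55 at HH15-16 and -4.40 to -3.85 at HH17-18. NEFL itself averaged 31.1 CPM at HH13-14 and 31.6 CPM at HH15-16, while TUBB3 averaged 885 and 771 CPM. The pools of HH15-16 differed in this. In replicates 1 and 2, TUBB3 was at 699.7 and 688 CPM, below every HH13-14 pool, with NEFL at 29.9 and 26.9 CPM. In replicate 3, NEFL was at 38.05 CPM and TUBB3 at 924 CPM, both above every HH13-14 pool.

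**Figure D5:**
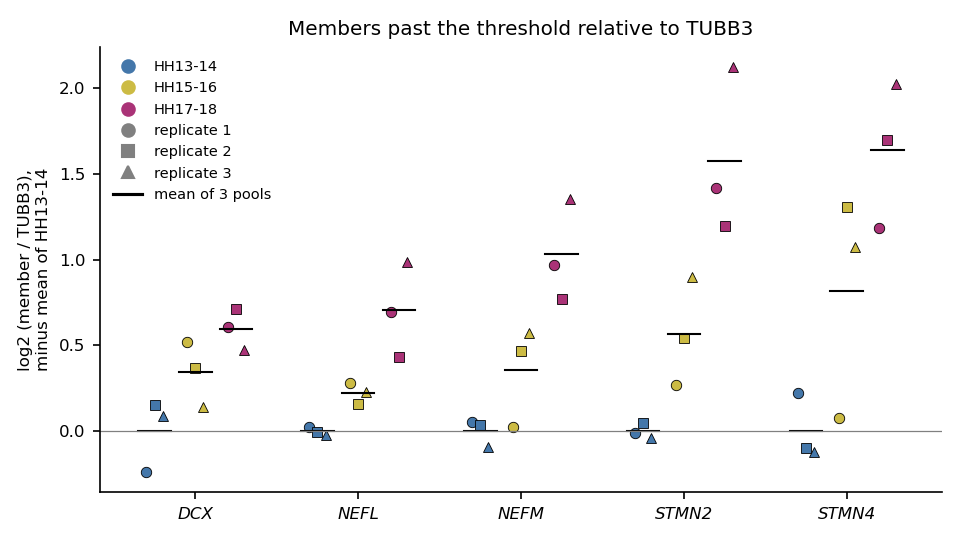
Log2 ratio of DCX, NEFL, NEFM, STMN2 and STMN4 to TUBB3 in each pool, as the difference from the HH13-14 mean (vertical axis), by stage, with pools as points and stage means as lines. The HH17-18 means lay between 0.60 for DCX and 1.64 for STMN4, and all HH17-18 pools were above all HH13-14 pools.

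Genes of the same roles outside the 40 moved in both directions. Of 101 such genes listed, 85 were tested, with a median log2 fold change of 0.09 between HH13-14 and HH17-18. Of these, 4 rose (4.71%) and 3 fell (3.53%), beside 2.4% and 2.12% of all genes. DESeq2 and limma voom each called 9 higher and 3 lower. Over all genes, DESeq2 called 1037 higher and 747 lower of 26169, and limma voom 937 higher and 807 lower of 17724. Without HH17-18 replicate 3, 1 was called higher, beside 0.397% of all genes, and 0 lower, beside 105 of 18149 genes. Without HH13-14 replicate 1, 2 or 3, 0 were called higher, beside 0.149%, 0.247% and 0.203% of all genes. In these fits 1, 0 and 0 were called lower, beside 71 of 18176, 75 of 18237 and 69 of 18219 genes. None of the 14 growth cone genes and none of the 11 RNA-binding genes passed by edgeR. Of these, 6 and 0 were higher at an unadjusted p under 0.05, beside 11.8% of all genes, and 0 were lower, beside 9.83%. VIM, the intermediate filament vimentin of progenitors and mesenchyme, averaged 2025 ± 220 CPM at HH17-18 and 1377 ± 87.1 CPM at HH13-14 (SD, n = 3 pools each), a log2 fold change of 0.56 (edgeR's adjusted p = 0.0393). ABLIM1, an actin-binding protein, averaged 31.0 ± 2.51 CPM at HH17-18 and 51.2 ± 5.75 CPM at HH13-14, and it fell by 0.72 on the log2 scale (edgeR's adjusted p = 0.0205).

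Of the 41 vesicle genes outside the 40, 3 rose (7.32%) and 2 fell (4.88%), beside 2.4% and 2.12% of all genes. PCSK1, a prohormone convertase, averaged 11.4 ± 2.78 CPM at HH17-18 and 4.004 ± 0.231 CPM at HH13-14, a log2 fold change of 1.51 (edgeR's adjusted p = 0.0129). SCG5, a protein that chaperones another convertase, had a log2 fold change of 0.93 (edgeR's adjusted p = 0.0473), and its highest pool was HH15-16 replicate 1. The SCG5 call in edgeR was lost with DESeq2 size factors (adjusted p = 0.0502), with lane 8 alone and with the replicate number as a block (adjusted p = 0.0593). It was also lost in 7 of the 9 fits that left out a pool. SLC17A6, a vesicular glutamate transporter of sensory neurons, had the highest value of the genes of the same roles outside the 40, 2.48 (edgeR's adjusted p = 0.0257). It averaged 1.39 ± 0.707 CPM at HH17-18 and 0.247 ± 0.0461 CPM at HH13-14. Those that fell were SYT17, a synaptotagmin-like gene, by 0.64, and CADPS2, a priming factor for granule release, by 1.01 (edgeR's adjusted p = 0.0326 and 0.0248). Calls of the other named genes were also lost in some of the 18 alternative settings. These were 7 settings for SYT17, 6 each for SLC17A6 and VIM, 5 for CADPS2, 4 for ABLIM1 and 3 for PCSK1, beside 10 for SCG5.

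Marker lists of the cells in the pools were set beside these changes. Of the 10 sensory neuron markers, 3 were higher at HH17-18 than at HH13-14 at an unadjusted p under 0.05 (11.8% of all genes) and 0 were lower (9.83%). Their log2 fold changes had a median of 0.16, and 7 were above 0, beside 52.8% of all genes. The list thus did not move as 1. ISL1, a sensory neuron transcription factor, overlapped at 12.7, 22.0 and 39.1 CPM at HH17-18 and 21.8, 15.6 and 31.8 CPM at HH13-14, with a log2 fold change of 0.09. All 4 macrophage markers rose, beside 2.4% of all genes. Of these markers, 0 passed without HH17-18 replicate 3 (0.397% of all genes higher) or without any 1 of the HH13-14 pools (0.149% to 0.247%). The summed level of the macrophage markers was 3.61 to 6.60 CPM at HH13-14, 4.48 to 25.7 CPM at HH15-16 and 19.5 to 60.4 CPM at HH17-18. The blood markers summed to 635 to 874 CPM at HH13-14, 603 to 1348 CPM at HH15-16 and 1149 to 1779 CPM at HH17-18, with 2 of 5 higher. Neural tube markers, from tissue that could also supply neurons, summed to 167 to 209 CPM at HH13-14, 133 to 348 CPM at HH15-16 and 100.4 to 279 CPM at HH17-18, and 0 of 7 passed by edgeR, with 1 higher and 1 lower at an unadjusted p under 0.05. No marker found in the table was at 0 in all pools. The part of any of these cell types in the members' changes was not tested.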

How the data were processed

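The authors deposited whole-number counts per gene for 18 libraries of poly(A) RNA, made with a TruSeq kit per the labels' protocols. Trim Galore, HISAT2, featureCounts and the GRCg7b build are named in the submitters' processing notes, without versions. Strand and multi-mapping settings are not given in the sources used here, so overlapping, antisense and near-identical genes are uncertain. Each count column was assigned to its sample by the column name, and 0 were left unused.

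The 2 technical replicates of each pool were summed. In R 4.3.3, edgeR 4.0.16 kept genes by filterByExpr (minimum count 10) and scaled libraries by TMM. All 9 pools entered 1 quasi-likelihood fit without covariates, with Benjamini-Hochberg adjustment over 17724 genes and a threshold of 0.05. The SE is the one implied by the test statistic. CPM are counts scaled to TMM library sizes, and log2 CPM used a prior count of 2. The alternatives used DESeq2 1.42.0 and limma 3.58.1 (voom with sample weights), other filters and scaling, 1 lane, the replicate number as a block, a fit of 2 stages, and each pool left out.

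The members and the other gene lists were chosen with earlier results of these data known. Pool values are printed for members past the threshold in any test and for those with the highest mean CPM or the extreme log2 fold changes of their role group, with values of a few other members added. Genes outside the 40 were named if past the threshold. The 37 of 38 positions found in RefSeq share the build of the notes, and no sequence was printed. The result of 1 sensory neuron marker is not reported here.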

Additional observations from a re-analysis of the deposited data

How the results depend on the processing

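Log2 fold changes of the 5 members that rose stayed above 0 under all alternatives run, but how many members passed depended on the setting. For any stage effect, 2 members passed, beside 230 of 17724 genes. The counts were 12 with DESeq2 (1371 of 26169 genes), 6 with no filter on low counts (530 of 26169) and 7 with voom (998 of 17724). They were 4 with the replicate block (334 of 17724) and 0 with lane 8 alone (181 of 16321). Leaving out each pool gave counts of 0 to 5, beside 23 to 606 genes. For HH17-18 against HH13-14 (5 members higher), they were 11 with DESeq2 (3.96% of all genes higher), 8 with no filter (2.03%), 13 with voom (5.29%), 8 with the replicate block (2.65%), 8 in a fit of the 2 stages (4.45%), and 0 to 8 when leaving out each pool (0.149% to 4.33%), beside 2.4% in the report. The count lower was 0, beside 375 of 17724 genes. It was 1 with DESeq2 (747 of 26169 genes), voom (807 of 17724) and the fit of the 2 stages (625 of 17191). Leaving out each pool gave 0 to 1, beside 69 to 722 genes lower. DESeq2 called 4 members higher at HH17-18 than at HH15-16 (0.665% of all genes higher), against 0 (0.0169%). The cause of these differences was not tested. DESeq2 size factors, at least 10 counts in every pool, and lane 7 alone kept the count of members higher within 1.5 times. With lane 7 alone NEFL lost its call (edgeR's adjusted p = 0.0566). Of the 18 alternative settings, the call was lost in 6 for NEFL, 5 for STMN4 and 4 each for DCX, NEFM and STMN2.

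Same-numbered pools did not deviate together (mean r 0.066 over 9 pairs, -0.063 to 0.303, against -0.033 over 18 other pairs), and 1 of 9 pools correlated best with its own number, so the numbers were not taken to pair the samples.

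Some signs turned, all of values that had not passed the test. The log2 fold change of NEFL between HH15-16 and HH13-14 was -0.00667 with lane 7 alone, -0.00782 with the replicate block, -0.0267 with voom and -0.130 to 0.128 when leaving out each pool, and that of NEFM was -0.0938 to 0.382. For HH17-18 against HH13-14, lane 8 alone gave -0.0141 for SYT1 and 0.0333 for SCG2, and leaving out each pool gave -0.0331 to 0.254 for TUBB3, -0.00886 to 0.397 for MAP2, -0.393 to 0.0311 for PRPH, -0.304 to 0.469 for GAP43, -0.250 to 0.728 for ELAVL2, -0.0490 to 0.177 for SYT1, -1.09 to 0.0877 for VAMP2, -0.304 to 0.757 for SV2C and -0.286 to 0.102 for SCG2.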

Other observations

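Of the 38 members, 37 were placed by RefSeq on GRCg7b, and 5 of them (MAP1B, ELAVL2, SYT4, SV2C and RAB3C) are on chromosome Z, which male birds carry in a double dose. Expression of 7 chromosome W genes, summed, was 197, 285 and 175 CPM in the HH13-14 pools, 141, 287 and 172 CPM in the HH15-16 pools, and 279, 237 and 272 CPM in the HH17-18 pools. Over 572 chromosome Z genes, the median deviation from the mean of the pools was -0.136 to 0.131 on the log2 scale. The part of a pool's sex make-up in the values of these 5 members was not tested.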
